A study of Mus musculus with 18 samples.

Results

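Mature fat cells store triglyceride in a lipid droplet and release it as fatty acids and glycerol. The 10 genes described here encode the enzymes of this breakdown (Pnpla2, Lipe, Mgll and Pnpla3), the proteins that switch the first enzyme on or off (Abhd5 and G0s2) and the main proteins that coat the droplet (Plin1, Plin2, Plin4 and Cidec). They were taken as a list of symbols by their roles, with earlier results of these data known, and are 10 of the 52093 symbols in the expression tables. Each was counted on 1 transcript row, and all 10 had enough reads to be tested in every comparison. RNA-seq data were analysed from adipocytes of inguinal white fat (iWAT), adipocytes of epididymal white fat (eWAT) and whole brown fat (BAT), with 6 mice for each tissue.

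All samples came from male wild type C57BL/6 mice that were 16 weeks old and had been fed a high-fat diet (HFD), over 12 weeks. The strain field reads C57BL/6, the protocol text C57BL/6J and the study's supplement C57BL/6NTac, so that the sources differ on the substrain. No other diet, genotype or drug treatment was analysed here, so every comparison is between tissues of HFD mice. A treatment field in the labels reads regular chow, against the titles, the design text and the study's methods, and the samples were taken as HFD. The white adipocytes were the cells that floated after collagenase digestion and filtration of the depot. BAT was snap-frozen as tissue (the cell type field calls it BAT adipocytes), so it also holds the vessels, connective tissue and other cells of that depot. The mouse number in the titles was read as the animal: both white depots came from mice 1, 2, 3, 4, 5 and 16, and BAT came from mice 1, 2, 5, 16, 17 and 18. White adipocytes were sequenced in lanes 1 and 2 and BAT in lanes 3 and 4, and a difference of BAT from white adipocytes cannot be told apart from one of lane.

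Lipolysis proceeds in steps. PNPLA2 (adipose triglyceride lipase, ATGL) removes the first fatty acid from triglyceride, LIPE (hormone-sensitive lipase, HSL) cleaves the resulting diglyceride, and MGLL (monoglyceride lipase) releases the last fatty acid from glycerol. ABHD5 (CGI-58) activates PNPLA2, whereas G0S2 inhibits it. At rest, perilipin 1 on the droplet surface holds ABHD5 away from PNPLA2. Cyclic AMP and protein kinase A, which act downstream of beta-adrenergic receptors, phosphorylate perilipin 1 and HSL and so start lipolysis. Receptors coupled to Gi proteins and insulin restrain this signal. CIDEC helps droplets to fuse into the single large droplet of a white adipocyte, and perilipin 2 coats droplets in most cell types, including macrophages laden with lipid.

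The total number of reads on transcript rows ranged from 26768529 to 30166441 in iWAT, 24655056 to 37438994 in eWAT and 27402247 to 42518483 in BAT. In BAT, the 10 most abundant rows held 43.6 to 54.3% of the reads, against 14.1 to 20.5% in iWAT and 9.94 to 13.01% in eWAT. Levels are given below in RPKM (reads scaled to transcript length and to the depth of the library), which this concentration of reads lowers for other BAT genes. Differences are given as log2 fold changes ± SE from edgeR after TMM scaling. TMM scaling is meant to correct for this concentration of reads, and assumes that most genes do not differ. With it, 75.3% of genes were called in iWAT against BAT and 82.5% in eWAT against BAT. Leaving this scaling out shifts the median over all genes from 0.01 to 0.87 in iWAT against BAT and from -0.02 to 0.89 in eWAT against BAT, and the share of calls higher in the white depot from 50.6 to 81.8% and from 49.8 to 76.1%. Any direction that depends on this scaling is stated as such. Which scaling is right for the comparisons with BAT was not tested.

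The adipocyte markers Adipoq, Lep, Retn, Cfd and Fabp4 were all detected above 1 RPKM on average in each tissue. All 5 were called higher in iWAT than in eWAT (edgeR), with a median log2 fold change of 1.55, and all 5 higher in iWAT than in BAT, with a median of 3.08. Against BAT, 3 were higher and 1 lower in eWAT with TMM scaling, and 4 were higher and 0 lower without it. Ucp1, the uncoupling protein of brown adipocytes, averaged 1858 RPKM in BAT, 2.26 RPKM in iWAT and 0.261 RPKM in eWAT. The 9 macrophage markers, among them Cd68 and Lyz2, were all higher in eWAT than in iWAT adipocytes and all higher in both than in BAT. Their summed level was 3371 to 5410 RPKM in eWAT, 567 to 1089 RPKM in iWAT and 27.0 to 53.9 RPKM in BAT, and no marker was at 0 reads in any tissue, while Emr1, Itgax, Trem2 and Gpnmb were below 1 RPKM in BAT. Summed endothelial markers were 101 to 287 RPKM in iWAT, 34.3 to 73.0 RPKM in eWAT and 70.7 to 102 RPKM in BAT. Summed skeletal muscle markers were 4.29 to 16.9 RPKM in iWAT, 1.27 to 4.94 RPKM in eWAT and 1.52 to 106 RPKM in BAT. All 5 muscle markers were called higher in BAT than in each white depot (edgeR). In such bulk samples, fewer cells of a type and less RNA per cell cannot be told apart. Whether RNA of macrophages, endothelial cells or muscle contributed to the differences reported below was not tested.

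Promoters of the 10 genes were read from RefSeq (GRCm38.p6), as the 250 bases before each annotated start, for 13 promoters in all. Perilipin 1 and perilipin 2 are shown because their levels moved in opposite directions between the white depots, and Pnpla3 because it was the gene of the 10 that differed most between eWAT and BAT. Capitals mark the motif matches. They are a C/EBP element, TTGCNNAA, in Plin1 (at -187 and -58), a nuclear receptor site, AGGTCA, in Plin2 (at -218, on the opposite strand), and a cyclic AMP response element, TGACGTCA, in Pnpla3 (at -46), with positions counted back from the start. The sequences lie at chr7:79732777-79733026 (- strand), chr4:86670060-86670309 (- strand) and chr15:84167566-84167815 (+ strand).
Plin1: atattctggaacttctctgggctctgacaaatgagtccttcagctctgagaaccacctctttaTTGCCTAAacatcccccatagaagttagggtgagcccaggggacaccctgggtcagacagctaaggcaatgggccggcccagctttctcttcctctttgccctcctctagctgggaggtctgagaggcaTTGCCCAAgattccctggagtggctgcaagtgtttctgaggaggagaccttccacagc
Plin2: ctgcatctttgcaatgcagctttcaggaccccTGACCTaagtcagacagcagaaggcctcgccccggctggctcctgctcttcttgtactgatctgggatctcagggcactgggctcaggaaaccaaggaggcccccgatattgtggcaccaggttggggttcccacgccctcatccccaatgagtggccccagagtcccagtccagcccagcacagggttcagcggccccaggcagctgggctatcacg
Pnpla3: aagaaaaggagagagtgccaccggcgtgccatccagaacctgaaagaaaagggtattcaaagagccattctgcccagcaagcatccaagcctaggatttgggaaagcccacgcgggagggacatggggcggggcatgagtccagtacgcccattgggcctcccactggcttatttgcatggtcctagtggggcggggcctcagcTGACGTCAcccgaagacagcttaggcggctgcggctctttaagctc

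The letter patterns named here were searched on both strands of all 32851 promoters of that length, and the PPAR element below contains AGGTCA. TTGCNNAA was held by 9.56% of all promoters and, among the 10 genes, by Plin1 and Cidec. AGGTCA was held by 14.0% of promoters and by Abhd5 and Plin2. The E-box CACGTG was held by 6.02% of promoters and by Lipe and Mgll, and TGACGTCA by 1.55% and by Pnpla3 only. Neither the TATA box TATAAA (12.4% of promoters) nor the direct repeat of AGGTCA with 1 base between that PPAR receptors read (0.0335%) was present in these windows. These matches describe the sequence and show nothing of binding.

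The order of the 10 genes by mean level differed between the tissues. In iWAT adipocytes, Cidec was the most abundant at 992 ± 162 RPKM (SD, n = 6), followed by Plin4 at 623 ± 80.3 RPKM, and both stood apart from the gene below them in all 6 mice. Plin1 (355 ± 52.8 RPKM), Pnpla2 (317 ± 57.8 RPKM) and Mgll (275 ± 21.5 RPKM) followed, with ranges that overlapped between neighbours. Abhd5 and Pnpla3 were the least abundant of the 10 in both white depots.

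In eWAT adipocytes, Cidec (447 ± 191 RPKM) and Plin2 (414 ± 47.3 RPKM) led, with overlapping ranges, and Cidec was above Plin2 in 4 of 6 mice. In BAT, Pnpla2 was the most abundant of the 10 at 376 ± 44.5 RPKM and was above Cidec (249 ± 36.5 RPKM) in all 6 mice. The ranges of G0s2, Plin1, Plin2, Lipe and Mgll overlapped between each neighbour in the BAT order. Plin4, the second most abundant gene in iWAT, was eighth of 10 in BAT at 89.6 ± 13.2 RPKM.

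**Figure D1:**
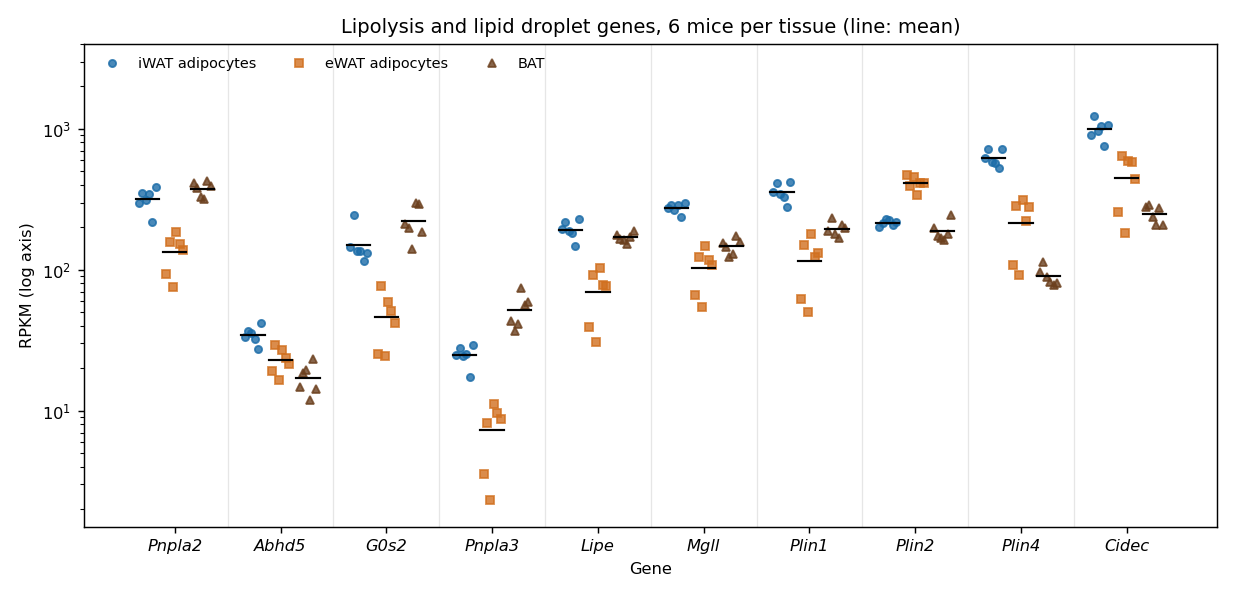
RPKM of the 10 genes (log axis) in 6 mice each of iWAT adipocytes (circles), eWAT adipocytes (squares) and BAT (triangles), with a line at the mean. All 6 eWAT values of Plin2 lie above every iWAT and BAT value (in TMM-scaled RPKM, not plotted, eWAT and BAT overlap), and all 6 eWAT values of Pnpla2, Pnpla3, Lipe and G0s2 lie below them.

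The question of the first comparison was how the white depots differ in this machinery. All 10 genes were called different between iWAT and eWAT adipocytes (adjusted p of 0.05, edgeR), against 68.6% of all 19623 genes tested, a background that makes the count of calls uninformative by itself. All but Plin2, 9 of 10, were higher in iWAT (against 34.1% of all genes), and 1 of 10 was higher in eWAT (against 34.5%). Of the 10 genes, 8 differed by at least 1 log2 unit (against 24.9% of all genes), and 9 had RPKM ranges that did not overlap between the depots (against 44.0%). The median log2 fold change of the 10 genes was 1.44, beside 0.00 over all genes and 1.55 over the 5 adipocyte markers, whose part in this shift was not tested. All 10 calls were also made with the mouse as a block (against 65.4% of all genes) and without eWAT mice 1 and 3, which are described below.

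In iWAT adipocytes against BAT, 9 of the 10 genes were called, against 75.3% of 19745 genes. Of these, 4 were higher in iWAT (Plin4, Cidec, Abhd5 and Mgll, against 38.1% of all genes) and 5 higher in BAT (Pnpla3, G0s2, Pnpla2, Lipe and Plin2, against 37.2%). Without TMM scaling, 7 were called higher in iWAT and 1, Pnpla3, in BAT, beside 13701 and 3054 of all 19745 genes. The fit with TMM scaling came with a median log2 fold change of -0.07 over the 10 genes, beside 0.01 over all genes. The RPKM ranges did not overlap for 6 of 10 (against 65.3% of all genes), and 4 of 10 differed by at least 1 log2 unit (against 37.3%). With the mouse as a block, 5 of 10 were called (against 63.6% of all genes): Plin4, Cidec, Pnpla3, G0s2 and Pnpla2. In eWAT adipocytes against BAT, 8 of 10 were called, against 82.5% of 20076 genes, with 6 higher in BAT (against 41.4% of all genes) and 2 higher in eWAT (against 41.1%), Plin4 and Plin2. Without TMM scaling the split was even, with 4 called higher in BAT and 4 in eWAT, beside 4066 and 12962 of all 20076 genes. With it, the median was -1.23, beside -0.02 over all genes. Of the 10, 6 differed by at least 1 log2 unit (against 49.0% of all genes), the RPKM ranges of 5 did not overlap (against 68.4%), and 8 were called with the mouse as a block (against 75.5%). The comparisons with BAT share the BAT samples, and those with each white depot share its samples, so that they are not independent of each other.

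**Figure D2:**
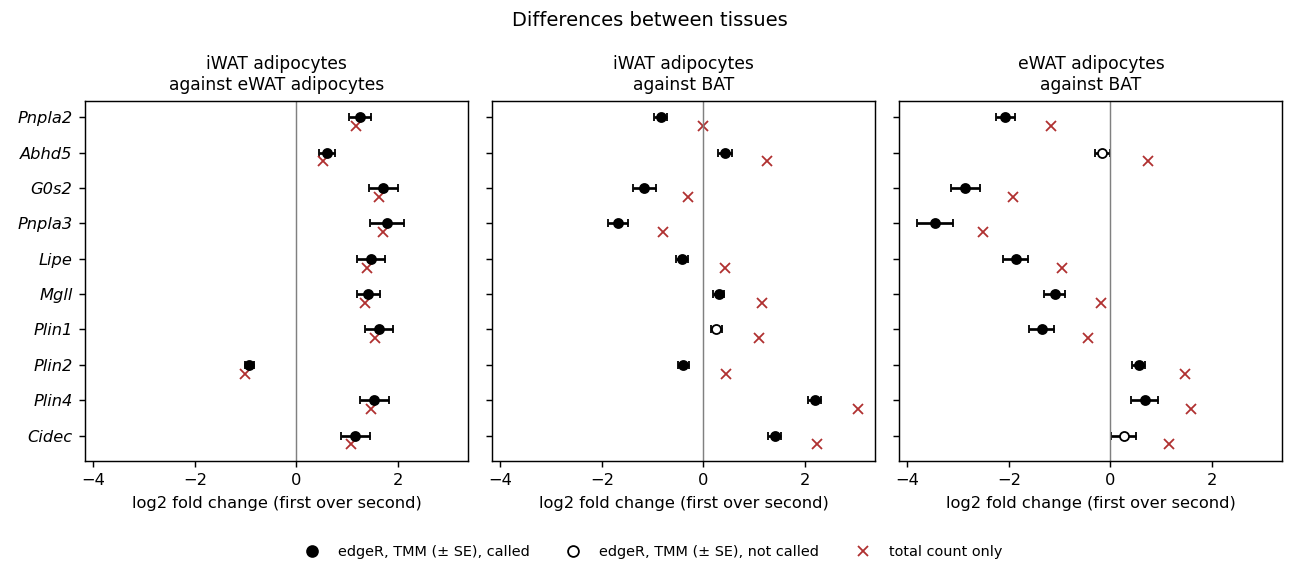
Log2 fold change of each gene between tissues (first over second; circles, edgeR with TMM scaling ± SE, filled where called; crosses, scaling to the total count only). The circles and crosses lie close together in iWAT against eWAT, where only Plin2 is below 0 at -0.93, whereas the crosses lie to the right of the circles in both comparisons with BAT.

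Pnpla2, the first lipase (Entrez 66853, mm9 chromosome 7, 148641087 to 148646642, + strand), had levels of 217, 327 and 384 RPKM (lowest, median and highest of 6 mice) in iWAT, 75.6, 146 and 186 RPKM in eWAT and 316, 386 and 426 RPKM in BAT. All 6 eWAT values lay below every iWAT and BAT value, while iWAT and BAT overlapped (though not in TMM-scaled RPKM). The log2 fold change was 1.25 ± 0.22 in iWAT against eWAT (edgeR adjusted p = 0.00025) and -2.07 ± 0.19 in eWAT against BAT (adjusted p = 6e-08). In iWAT against BAT it was -0.85 ± 0.14 (adjusted p = 4.3e-05), and this difference was absent without TMM scaling (0.00, adjusted p = 0.99). A second row of the symbol on the opposite strand overlaps 229 bases of this gene.

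Lipe encodes HSL (Entrez 16890, chromosome 7, 26164546 to 26183729, - strand). Its RPKM was 147, 191 and 228 in iWAT, 30.5, 77.6 and 103 in eWAT and 153, 168 and 188 in BAT, so that eWAT again lay below both other tissues without overlap, while iWAT and BAT overlapped in RPKM but not in TMM-scaled RPKM. It was higher in iWAT than in eWAT by 1.47 ± 0.27 log2 units (edgeR adjusted p = 0.00035) and differed by -1.87 ± 0.25 in eWAT against BAT (adjusted p = 4.2e-06). The difference of iWAT against BAT was -0.42 ± 0.12 (adjusted p = 0.0051), but it was 0.43 in the opposite direction without TMM scaling (adjusted p = 0.0022), and with the mouse as a block the adjusted p was 0.093. Rows of 4732471J01Rik and LOC100503615 on the opposite strand overlap Lipe, and since it is not known whether the counting used strand, reads of these rows cannot be told apart from those of Lipe.

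Mgll, which completes lipolysis (Entrez 23945, chromosome 6, 88674406 to 88778354, + strand), had an RPKM of 237, 281 and 298 in iWAT, 54.5, 113 and 148 in eWAT and 122, 149.8 and 174 in BAT. In RPKM the iWAT values lay above all others, and eWAT and BAT overlapped. In TMM-scaled RPKM it was iWAT and BAT that overlapped, and eWAT and BAT that did not. It differed by 1.42 ± 0.22 log2 units in iWAT against eWAT (edgeR adjusted p = 8.1e-05). In iWAT against BAT the difference was 0.30 ± 0.10 (adjusted p = 0.015, and 0.093 with the mouse as a block). In eWAT against BAT it was -1.10 ± 0.20 (adjusted p = 0.00013), which did not pass without TMM scaling (-0.19, adjusted p = 0.37).

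Pnpla3, a close relative of Pnpla2 that acts on the lipid of the droplet surface (Entrez 116939, chromosome 15, 83998246 to 84019951, + strand), showed the largest log2 differences of the 10 genes between eWAT and each other tissue. Its RPKM was 17.4, 25.2 and 29.1 in iWAT, 2.31, 8.47 and 11.1 in eWAT and 37.0, 49.5 and 74.4 in BAT. The 3 tissues did not overlap. The log2 fold change was 1.79 ± 0.33 in iWAT against eWAT (edgeR adjusted p = 0.00033), -1.69 ± 0.20 in iWAT against BAT (adjusted p = 1.8e-06) and -3.46 ± 0.36 in eWAT against BAT (adjusted p = 3e-07), the last a 10.97-fold difference. These directions also held without TMM scaling. The lowest eWAT sample, mouse 3, still had 459 reads on Pnpla3. Its transcript holds repeats with many matches elsewhere in the genome, the longest 197 bases. How reads that match several places were counted is not given in the sources used here.

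Abhd5, the activator of Pnpla2 (Entrez 67469, chromosome 9, 122260726 to 122320798, + strand), varied less between tissues. Its RPKM was 27.3, 34.3 and 41.7 in iWAT, 16.4, 22.5 and 29.5 in eWAT and 12.0, 16.7 and 23.2 in BAT, with overlap between eWAT and each other tissue and, in TMM-scaled RPKM, also between iWAT and BAT. It was higher in iWAT than in eWAT by 0.60 ± 0.15 log2 units (edgeR adjusted p = 0.0029), the smallest difference of the 10 genes in that comparison. In iWAT against BAT the difference was 0.42 ± 0.14 (adjusted p = 0.012, and 0.061 with the mouse as a block). It was not called in eWAT against BAT (-0.16 ± 0.15, adjusted p = 0.34), where the sign turned without TMM scaling (0.74, adjusted p = 0.0006) and without eWAT mice 1 and 3 (0.01, adjusted p = 0.96). The row of A730085K08Rik on the opposite strand overlaps 30.3% of its span and had 53.9% of the RPKM of Abhd5. Reads of this row cannot be told apart from those of Abhd5 either.

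G0s2, the inhibitor of Pnpla2 (Entrez 14373, chromosome 1, 195098354 to 195099382, - strand), had an RPKM of 116, 136 and 243 in iWAT, 24.6, 46.6 and 76.7 in eWAT and 141, 205 and 298 in BAT. The eWAT values lay below all others, and iWAT and BAT overlapped. The log2 fold change was 1.71 ± 0.29 in iWAT against eWAT (edgeR adjusted p = 0.00017), -2.86 ± 0.29 in eWAT against BAT (adjusted p = 2.2e-07) and -1.16 ± 0.22 in iWAT against BAT (adjusted p = 0.00018). The last of these did not pass without TMM scaling (-0.30, adjusted p = 0.15). The row of G0s2 lies wholly within LOC100503531 on the opposite strand. Over 18 samples, LOC100503531 had 96.8% of the RPKM of G0s2 and a correlation above 0.99 with it. Reads of the rows cannot be told apart.

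Plin1, the perilipin that guards the droplet of adipocytes (Entrez 103968, chromosome 7, 86866050 to 86877662, - strand), had an RPKM of 277, 349 and 418 in iWAT, 50.5, 127 and 178 in eWAT and 169, 193 and 233 in BAT. In RPKM all iWAT values lay above those of the other tissues, and eWAT and BAT overlapped. In TMM-scaled RPKM, iWAT and BAT overlapped and eWAT and BAT did not. It differed by 1.63 ± 0.28 log2 units in iWAT against eWAT (edgeR adjusted p = 0.0002) and by -1.35 ± 0.25 in eWAT against BAT (adjusted p = 0.00012). Without TMM scaling the latter was -0.45 and did not pass (adjusted p = 0.093). In iWAT against BAT the difference was 0.26 ± 0.12 and missed the threshold (adjusted p = 0.055), although it was called by DESeq2 (adjusted p = 0.044), without iWAT mouse 5 (0.33, edgeR adjusted p = 0.0076) or without BAT mouse 2 (0.28, adjusted p = 0.05), and was 1.102 without TMM scaling (adjusted p = 2.9e-07).

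Plin2 (Entrez 11520, chromosome 4, 86294290 to 86315964, - strand) was the one gene of the 10 with a higher level in eWAT than in iWAT, and it coats droplets in cells of many types. Its RPKM was 200.5, 216 and 228 in iWAT, 337, 415 and 470.3 in eWAT and 162, 175 and 245 in BAT. In RPKM every eWAT value lay above every iWAT and BAT value, whereas in TMM-scaled RPKM eWAT and BAT overlapped and iWAT and BAT did not. Its log2 fold change was -0.93 ± 0.09 in iWAT against eWAT (edgeR adjusted p = 2.6e-06), and was 0.55 ± 0.12 higher in eWAT than in BAT (adjusted p = 0.00068). In iWAT against BAT the difference was -0.40 ± 0.11 (adjusted p = 0.0034, and 0.064 with the mouse as a block), and it turned to 0.45 without TMM scaling (adjusted p = 0.0016).

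A copy of part of the Plin2 transcript lies close to the gene on chromosome 4, with 625 bases at 96.5% identity (86272619 to 86273237) in the row ENSMUSG00000081169. That row had 6.87 to 8.63% as many reads as Plin2 in the 18 samples, with a similar share in each tissue (median 8.21% in iWAT, 7.93% in eWAT and 8.15% in BAT). How reads that match both places were counted is not given in the sources used here.

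Plin4, a perilipin of white adipocytes (Entrez 57435, chromosome 17, 56240014 to 56245053, - strand), had an RPKM of 529.5, 599 and 724 in iWAT, 91.3, 249.5 and 313 in eWAT and 77.4, 85.1 and 113 in BAT. The iWAT values stood apart from both other tissues. It showed the largest difference of the 10 genes in iWAT against BAT, at 2.19 ± 0.13 log2 units (edgeR adjusted p = 4.2e-10, a 4.58-fold difference), and differed by 1.54 ± 0.29 in iWAT against eWAT (adjusted p = 0.00038). In eWAT against BAT it was 0.67 ± 0.26 (adjusted p = 0.026), a call that was lost without eWAT mouse 2, 4 or 16 or BAT mouse 17 or 18 (adjusted p of 0.056 to 0.065). Without eWAT mice 1 and 3 the same difference was 1.03 log2 units (edgeR adjusted p = 1.7e-06).

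Cidec, the droplet fusion protein (Entrez 14311, chromosome 6, 113374628 to 113385754, - strand), had an RPKM of 751, 999.9 and 1229 in iWAT, 182, 508 and 639 in eWAT and 207, 256 and 287 in BAT. Again the iWAT values stood above the rest, and eWAT and BAT overlapped. The log2 fold change was 1.159 ± 0.28 in iWAT against eWAT (edgeR adjusted p = 0.0026) and 1.401 ± 0.13 in iWAT against BAT (adjusted p = 1.1e-07). In eWAT against BAT it was 0.26 ± 0.25 (adjusted p = 0.34), and it was called without eWAT mice 1 and 3 (0.61, adjusted p = 0.00027), without eWAT mouse 3 alone (0.43, adjusted p = 0.043) and without TMM scaling (1.162, adjusted p = 0.00036).

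Ratios of 2 genes within a sample do not depend on how the libraries are scaled, and 8 of them were compared between tissues by exact two-sided permutation tests over samples, with adjustment over 24 tests. The smallest p that 6 against 6 samples can give is 0.00216, which becomes 0.00325 after adjustment. Of the 8 ratios, 6 differed between iWAT and eWAT adipocytes, 7 of 8 between iWAT and BAT, and 7 of 8 between eWAT and BAT. With the exact sign-flip test on same-numbered mice, 0 of 8 passed in each comparison (smallest adjusted p = 0.15). The smallest p that this test can give is 0.03125 for the 6 pairs of white depots and 0.125 for the 4 pairs with BAT, and 5 of 8 ratios reached the former, which lies exactly at 0.05 if adjusted over the 8 ratios of that comparison alone.

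Among the droplet coat genes, the RNA of Plin2 relative to Plin1 differed between the tissues, with overlapping ranges in iWAT and BAT. The ratio of Plin2 to Plin1 was 0.522, 0.615 and 0.753 in iWAT (lowest, median and highest), 1.89, 3.27 and 9.001 in eWAT and 0.739, 0.944 and 1.25 in BAT. It was 6.40-fold higher in eWAT than in iWAT, 4.13-fold higher in eWAT than in BAT (exact permutation test, adjusted p = 0.00325 for each) and 1.55-fold higher in BAT than in iWAT (exact permutation test, adjusted p = 0.00611). Plin2 made up 15.9 to 20.6% of the summed RPKM of Plin1, Plin2 and Plin4 in iWAT, 40.7 to 76.2% in eWAT and 33.2 to 46.9% in BAT.

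The ratio of Plin4 to Plin1 was 1.69, 1.74 and 1.91 in iWAT and 1.76, 1.81 and 2.11 in eWAT, and no difference was called between the white depots (1.05-fold, exact permutation test, adjusted p = 0.173), although it was without iWAT mouse 5 (adjusted p = 0.027). In BAT it was 0.370, 0.485 and 0.505, without overlap with either white depot. It was 3.86-fold higher in iWAT and 4.07-fold higher in eWAT than in BAT (exact permutation test, adjusted p = 0.00325 for each). Cidec to Plin1 was 2.54, 2.75 and 3.18 in iWAT, 3.32, 3.87 and 4.72 in eWAT and 1.05, 1.27 and 1.47 in BAT. All 3 tissues stood apart in this ratio, with eWAT highest at 1.39-fold over iWAT and 3.06-fold over BAT (exact permutation test, adjusted p = 0.00325 for each).

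The regulators of Pnpla2 also differed in proportion to it. Abhd5 to Pnpla2 was 0.0943, 0.110 and 0.126 in iWAT, 0.145, 0.171 and 0.217 in eWAT and 0.0359, 0.0435 and 0.0594 in BAT, again with no overlap between tissues. It was 1.60-fold higher in eWAT than in iWAT, and 2.46-fold higher in iWAT and 3.93-fold higher in eWAT than in BAT (exact permutation test, adjusted p = 0.00325 for each). The inhibitor showed the opposite order of medians. G0s2 to Pnpla2 was 0.342, 0.463 and 0.696 in iWAT, 0.271, 0.320 and 0.487 in eWAT and 0.429, 0.518 and 0.940 in BAT. It was 1.71-fold higher in BAT than in eWAT (exact permutation test, adjusted p = 0.00866) and 1.41-fold higher in iWAT than in eWAT (adjusted p = 0.0286), a call lost without iWAT mouse 1 or 2, without eWAT mouse 1, 3, 4, 5 or 16, and without eWAT mice 1 and 3 together (adjusted p of 0.052 to 0.099), while iWAT and BAT did not pass (1.22-fold, adjusted p = 0.253).

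Among the lipases, Lipe to Pnpla2 was 0.528, 0.615 and 0.678 in iWAT, 0.404, 0.532 and 0.585 in eWAT and 0.403, 0.456 and 0.493 in BAT. It was 1.35-fold higher in iWAT than in BAT (exact permutation test, adjusted p = 0.00325) and 1.23-fold higher in iWAT than in eWAT (adjusted p = 0.0219), though not without eWAT mice 1 and 3 (adjusted p = 0.091) or without iWAT mouse 1 (0.052). In eWAT against BAT it was 1.104-fold (exact permutation test, adjusted p = 0.217, and 0.0063 without eWAT mice 1 and 3). Mgll to Lipe was 1.31 to 1.61 in iWAT, 1.34 to 1.79 in eWAT and 0.752 to 1.01 in BAT, 1.66-fold and 1.76-fold higher in the white depots than in BAT (exact permutation test, adjusted p = 0.00325 for each). Between the white depots it differed 1.06-fold and was not called (exact permutation test, adjusted p = 0.338).

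Pnpla3 to Pnpla2 was 0.0738, 0.0792 and 0.0846 in iWAT, 0.0306, 0.0558 and 0.0629 in eWAT and 0.0980, 0.128 and 0.235 in BAT. The tissues did not overlap, with BAT 2.73-fold above eWAT and 1.71-fold above iWAT, and iWAT 1.60-fold above eWAT (exact permutation test, adjusted p = 0.00325 for each).

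**Figure D3:**
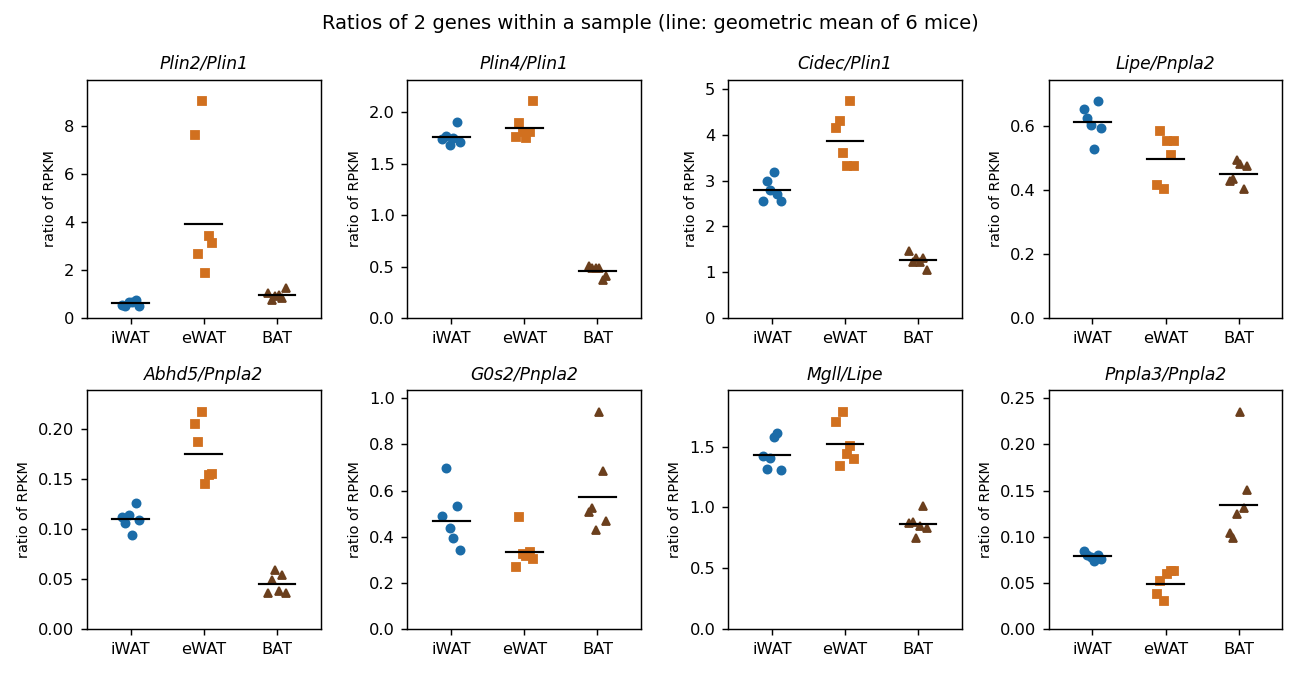
Ratios of RPKM of 2 genes within a sample, in 6 mice per tissue, with a line at the geometric mean; each vertical axis starts at 0. Plin2/Plin1 is highest in eWAT, where 2 mice reach 7.62 and 9.001, whereas Plin4/Plin1 and Mgll/Lipe are alike in the white depots and lower in BAT.

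For 8 of the 10 genes, all but Abhd5 and Plin2, values varied more between mice in eWAT adipocytes than in the other tissues. The coefficient of variation of RPKM was 21.2 to 48.4% for 9 of the genes in eWAT and 11.4% for Plin2. In mice 1 and 3, all 9 genes other than Plin2 had their lowest 2 values of the 6 eWAT samples, and Plin2 had its highest. Plin1, for example, was at 61.7 RPKM in mouse 1 and 50.5 RPKM in mouse 3, against 122 to 178 RPKM in the other 4 mice, and Pnpla3 was at 3.56 and 2.31 RPKM against 8.20 to 11.1 RPKM. Plin2 was at 470.3 RPKM in mouse 1 and 455 RPKM in mouse 3, against 337 to 416 RPKM in the other 4.

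Markers moved with these values. The summed macrophage markers were 5410 RPKM in eWAT mouse 1 and 5374 RPKM in mouse 3, against 3371 to 3771 RPKM in the other 4, and Adipoq was 199 and 149.9 RPKM against 396 to 579 RPKM. The part of these markers in the values of the 10 genes was not tested. Within the 6 eWAT samples, the correlation (Pearson's r of log2 levels, a description without a test) was 0.85 to 0.999 for the 36 pairs of genes without Plin2 and -0.87 to -0.76 for the 9 pairs with Plin2. In iWAT these ranges were 0.39 to 0.99 and -0.07 to 0.44, and in BAT they were -0.79 to 0.94 and -0.25 to 0.93. The points share libraries and their scaling.

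Without eWAT mice 1 and 3, all 10 genes were still called between iWAT and eWAT. The log2 fold changes were then between 0.44 (Abhd5, edgeR adjusted p = 0.013) and 1.403 (G0s2, adjusted p = 0.00026) for the 9 genes higher in iWAT, and Plin2 was at -0.86 (adjusted p = 8.9e-06). The ratio of Plin2 to Plin1 still differed, by -2.14 log2 units in iWAT against eWAT.

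**Figure D4:**
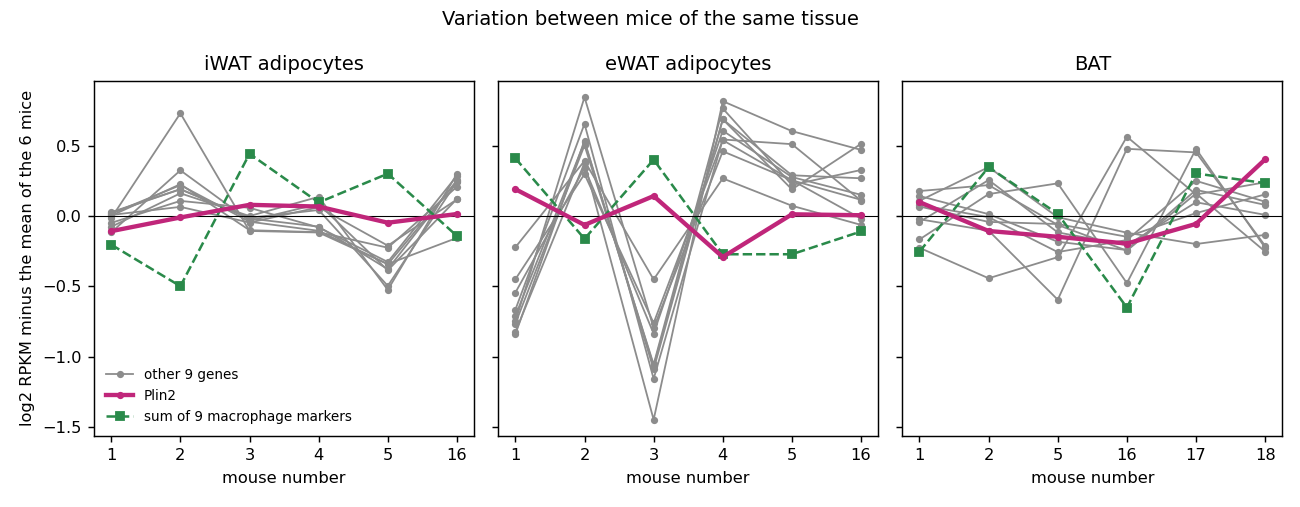
Log2 RPKM of each gene minus its mean over the 6 mice of the tissue, by mouse number, for Plin2 (thick line), the other 9 genes (thin lines) and the sum of 9 macrophage markers (dashed). In eWAT the 9 genes are all below their means in mice 1 and 3, by a median of 0.71 and 1.05, while Plin2 and the macrophage markers are above theirs.

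After these values were seen, each gene was also divided by Adipoq, the adipocyte hormone adiponectin, in the same sample (30 exact permutation tests with adjustment). Adipoq itself ranged from 840.2 to 1297 RPKM in iWAT, 149.9 to 579 RPKM in eWAT and 189 to 268 RPKM in BAT. It was higher in iWAT than in eWAT (1.55 ± 0.30 log2 units, edgeR) and than in BAT (1.75 ± 0.13). Between eWAT and BAT it was not called (0.22 ± 0.27). A gene with no difference would thus be lower in iWAT relative to Adipoq. The share of all genes that differ relative to Adipoq was not computed, so these counts have no background. Relative to Adipoq, 5 of the 10 genes differed between the white depots. Abhd5, Plin2 and Cidec were then higher in eWAT, by 2.12-fold, 6.17-fold and 1.34-fold (exact permutation test, adjusted p = 0.00325 for each). Pnpla2 was 1.33-fold higher in eWAT (adjusted p = 0.00928) and Pnpla3 1.204-fold higher in iWAT (adjusted p = 0.0266). The widest spread in eWAT was that of Plin2 to Adipoq (median 0.986, highest 3.03) and Abhd5 to Adipoq (median 0.0540, highest 0.110). These ratios were not tested without eWAT mice 1 and 3, in which Adipoq was lowest. For Plin1 (1.04-fold, exact permutation test, adjusted p = 0.464), Plin4 (1.02-fold, adjusted p = 0.829), G0s2 (1.06-fold, adjusted p = 0.652), Lipe (1.08-fold, adjusted p = 0.11) and Mgll (1.15-fold, adjusted p = 0.16) no difference was called.

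Against BAT, 9 of 10 genes were lower relative to Adipoq in iWAT, from 1.28-fold (Cidec) to 10.4-fold (Pnpla3), and Plin4 was 1.37-fold higher (exact permutation test, adjusted p = 0.00325 for each). The higher level of Adipoq itself in iWAT enters each of these ratios. In eWAT, 6 were lower than in BAT relative to Adipoq, up to 12.5-fold for Pnpla3, Plin4 was 1.39-fold higher (exact permutation test, adjusted p = 0.00325 for each), and Abhd5, Plin2 and Cidec were not called.

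Of the other lipid hydrolases, Lipa and Abhd12 were high in eWAT. Of 11 tested in iWAT against eWAT, 6 were higher in iWAT and 4 in eWAT. For this list and those below, 34.1% of all genes were called higher in iWAT and 34.5% in eWAT. The shares were 38.1% higher in iWAT and 37.2% in BAT for iWAT against BAT. They were 41.1% higher in eWAT and 41.4% in BAT for eWAT against BAT. Ces1f and Ces1d, carboxylesterases that can hydrolyse triglyceride, were higher in iWAT (1.94 ± 0.27 and 1.90 ± 0.31 log2 units), whereas Lipa, the acid lipase of lysosomes, was higher in eWAT (-2.03 ± 0.17, from 230.3 RPKM in eWAT to 56.0 RPKM in iWAT), as was Pnpla7 (-1.31 ± 0.10). Of 10 tested against BAT, 3 were higher in iWAT and 5 in BAT, and 3 were higher in eWAT and 6 in BAT. Without TMM scaling these splits were 7 to 2 and 5 to 3. Abhd12 was higher in iWAT and eWAT than in BAT (1.73 ± 0.09 and 2.97 ± 0.11), and so were Ces1f in iWAT (1.79 ± 0.12) and Lipa in eWAT (3.08 ± 0.16). Ddhd2 (-2.52 ± 0.10 and -2.73 ± 0.09) and Abhd6 (-1.59 ± 0.11 and -2.80 ± 0.23) were lower in both white depots than in BAT.

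Among the other droplet proteins, 4 of 11 tested were higher in iWAT and 4 in eWAT. Plin5, the perilipin of oxidative tissues, and Cidea, the CIDE protein of brown fat, were higher in iWAT than in eWAT (1.67 ± 0.27 and 2.91 ± 0.30). Both were far higher in BAT, at 71.7 RPKM and 520.1 RPKM, with -4.32 ± 0.15 and -6.82 ± 0.14 in iWAT and -5.96 ± 0.25 and -9.71 ± 0.33 in eWAT. Hilpda (listed as 2310016C08Rik), an inhibitor of PNPLA2 induced by low oxygen, followed the direction of Plin2 between the white depots (-0.88 ± 0.14), was at 103 RPKM in eWAT and 56.1 RPKM in iWAT, and was at 3.89 RPKM in BAT (3.24 ± 0.20 and 4.14 ± 0.19 against BAT). Hsd17b11 was higher in eWAT than in iWAT (-0.74 ± 0.09) and than in BAT (1.27 ± 0.08), and Ldaf1 (listed as Tmem159) was higher in iWAT than in BAT (0.68 ± 0.11). Against BAT, 4 of 11 were higher and 5 lower in iWAT, and 4 were higher and 7 lower in eWAT (7 to 3 and 6 to 4 without TMM scaling).

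**Figure D5:**
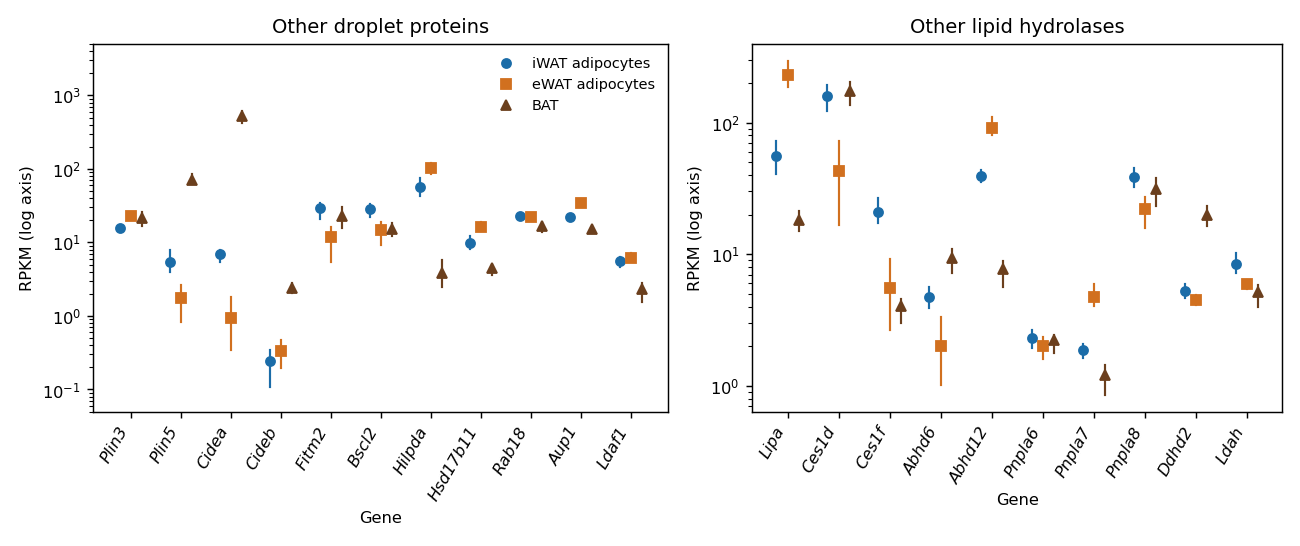
Mean RPKM (log axis; bars, lowest to highest of 6 mice) of the other droplet proteins and other lipid hydrolases with a mean of at least 1 RPKM in some tissue, in iWAT adipocytes (circles), eWAT adipocytes (squares) and BAT (triangles). Cidea and Plin5 are highest in BAT, and Hilpda, Lipa and Abhd12 are highest in eWAT.

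Of 11 genes of the signals that raise lipolysis, 7 were higher in iWAT and 2 in eWAT. Adcy6 (1.498 ± 0.19), an adenylyl cyclase, and Prkar2b (1.45 ± 0.26), a regulatory subunit of protein kinase A, were higher in iWAT. Adcy3 (-1.10 ± 0.12) and Prkacb (-0.73 ± 0.09) were higher in eWAT. Whether these levels alter the drive to lipolysis was not tested. In BAT, 8 of 11 were called higher than in iWAT and 8 of 11 higher than in eWAT, against 37.2% and 41.4% of all genes. Without TMM scaling, 4 were higher in BAT and 4 in iWAT, while 8 were higher in BAT and 3 in eWAT. Adrb3 and Adrb1, beta-adrenergic receptors, averaged 80.8 RPKM and 8.20 RPKM in BAT and differed by -3.23 ± 0.23 and -3.65 ± 0.18 in iWAT and by -4.01 ± 0.42 and -5.46 ± 0.26 in eWAT. Prkacb was higher in eWAT than in BAT (0.66 ± 0.10).

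Of 15 genes that restrain lipolysis, 12 were higher in iWAT than in eWAT and 2 lower (against 34.1% and 34.5% of all genes). Ptger3 (1.72 ± 0.32) and Adora1 (1.57 ± 0.28), both Gi-coupled receptors, were among the former, and the Gi subunits Gnai2 (-0.55 ± 0.10) and Gnai3 (-0.37 ± 0.07) were the latter. Against BAT, 9 of 15 were higher and 3 lower in iWAT, and 6 of 14 tested were higher and 7 lower in eWAT (13 to 1 and 8 to 5 without TMM scaling). The receptors for niacin and lactate, Hcar2 (listed as Niacr1) and Hcar1 (listed as Gpr81), were higher than in BAT in iWAT (5.01 ± 0.23 and 3.20 ± 0.19) and in eWAT (3.50 ± 0.33 and 2.31 ± 0.27). Pde4d was higher in BAT (-2.14 ± 0.10 in iWAT and -3.37 ± 0.16 in eWAT), and Akt2 was too (-0.72 ± 0.10 and -1.73 ± 0.13), the former of these Akt2 values turning to 0.12 without TMM scaling.

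Of 6 genes that handle the products of lipolysis, 3 were higher in iWAT than in eWAT and Cd36 was lower (-0.36 ± 0.11). Aqp7, the glycerol channel, and Acsl1, which activates fatty acids, were higher in iWAT (1.72 ± 0.17 and 1.45 ± 0.28). Fabp5 was higher in both white depots than in BAT (1.72 ± 0.15 and 1.86 ± 0.16), as were Slc27a1 in iWAT (0.98 ± 0.13) and Cd36 in eWAT (1.26 ± 0.13). Aqp7 and Acsl1 were lower in eWAT than in BAT (-2.22 ± 0.17 and -1.69 ± 0.26), and Aqp7 was lower in iWAT than in BAT with TMM scaling only (-0.52 ± 0.09, against 0.32 without it). Against BAT, 4 of 6 were higher and 1 lower in iWAT, and 3 were higher and 3 lower in eWAT (6 to 0 and 3 to 2 without TMM scaling).

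Of 6 transcription factors of fat, 5 were higher in iWAT than in eWAT, among them Pparg (1.12 ± 0.13) and Ppara (1.52 ± 0.28), and Irf4 was lower (-0.64 ± 0.23, a call lost with lane as a covariate or without iWAT mouse 1 or eWAT mouse 5). Ppara averaged 42.7 RPKM in BAT and was lower in both white depots (-5.83 ± 0.16 and -7.33 ± 0.31). Pparg was lower in eWAT than in BAT (-1.65 ± 0.13) and, with TMM scaling only, in iWAT than in BAT (-0.55 ± 0.09, against 0.31 without it). Irf4 (1.48 ± 0.24 and 2.15 ± 0.19) and Rxra (1.01 ± 0.09 and 0.28 ± 0.11) were higher in both white depots than in BAT. The eWAT call of Rxra (edgeR adjusted p = 0.028) was lost with the mouse as a block (0.076) and without eWAT mouse 2, 4 or 16 or any BAT mouse but mouse 2 (0.05 to 0.09). Against BAT, 3 of 6 were higher and 2 lower in iWAT, and 2 were higher and 4 lower in eWAT (5 to 1 and 2 to 2 without TMM scaling).

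The genes most like each member were found among 14147 genes by Pearson's r of log2 levels over 18 samples, after each tissue's mean was subtracted, as a description with no test. Plin1 was most like Pcx (0.99) and Aoc3 (0.98), Plin4 was most like Adora1 and Tusc5 (0.98 each), and Cidec was most like Adipoq (0.98). Lipe was most like Aifm2 (0.98), Pnpla2 was most like Mecr and Ech1 (0.97 each), Mgll was most like Klhl13 (0.97), and Pnpla3 was most like Klhdc7a (0.96). Abhd5 was most like Ppa1 (0.96), followed by A730085K08Rik (0.95), whose row overlaps it. For Plin2 the most alike was its partial copy ENSMUSG00000081169 (0.92), and for G0s2 it was the overlapping LOC100503531 (above 0.99), so that these 2 values reflect rows that can share reads. Over the tissue differences as well, Pnpla3 was again most like Klhdc7a (0.99) and Cidec most like Adipoq (0.99), while Plin1 was most like Prkd1 (0.99) and Plin4 most like Lrrc61 (0.99).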

How the data were processed

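RNA was sequenced (NEBNext Ultra libraries) from 18 samples, 6 for each tissue. The authors deposited read counts and RPKM per transcript row. The submitters' processing notes name cutadapt 1.16, HISAT2 2.1.0 and mm9, whereas the counting program, its use of strand and the annotation are not given in the sources used here. Of 53445 rows, 1 row was kept for each of 52093 symbols, that of the highest mean RPKM. Genes were kept where their count averaged 10 or more, and were tested with the quasi-likelihood test of edgeR 4.0.16 (R 4.3.3) after TMM scaling, on the 12 samples of each comparison, with Benjamini-Hochberg adjustment over all genes tested and a threshold of 0.05. The SE is the log2 fold change divided by the root of F. The total of reads ranged from 24655056 to 42518483, and p-values measure the spread between mice.

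Ratios of RPKM were compared by exact permutation tests, adjusted over 24 tests, as was the block. Alternatives were DESeq2 1.42.0, limma 3.58.1 on log2(RPKM + 0.1) or log2(RPKM + 1), no filter, no scaling beyond the total count, all 18 samples in one fit, lane, summed rows, the mouse as a block and each sample left out. Ratios to Adipoq and the fits without eWAT mice 1 and 3 were added after the data were seen. The members and gene lists were chosen with earlier results of these data known. From each other list, the text names up to 2 genes called in each direction with the largest log2 fold change and a mean of at least 1 RPKM in 1 of the tissues compared. The same mouse number in the titles was read as the same animal, and the samples as paired on that reading, although the data show no sign of it. Deviations from the group means of same-numbered samples correlated by -0.30 to 0.52 in 6 pairs of iWAT and eWAT, -0.15 to 0.12 in 4 pairs of iWAT and BAT and -0.06 to 0.05 in 4 pairs of eWAT and BAT, beside -0.50 to 0.52, -0.22 to 0.21 and -0.13 to 0.13 for differently numbered samples. In counts simulated for each comparison, edgeR recovered 82, 85 and 87% of genes changed by 1 log2 unit. The order is iWAT against eWAT, iWAT against BAT and eWAT against BAT. Of genes changed by 2 log2 units, edgeR recovered 99% in each. Recovery where as large a share of genes differs as was called in the data (68.6, 75.3 and 82.5%) was not tested. Protein sequences were not used here, and some genes that this rule or the likeness search would name are not reported here.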

Additional observations from a re-analysis of the deposited data

Results flagged for a closer look

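Among 54 groups of 6 values, of which chance would flag about 2.7 (1 in 20), 3 held a sample far from the others. G0s2 was at 243.1 RPKM in iWAT mouse 2, against 115.6 to 145 RPKM in the other iWAT mice. The ratio of Plin4 to Plin1 was 1.908 in iWAT mouse 5, against 1.687 to 1.767 in the others. The ratio of G0s2 to Pnpla2 was 0.4871 in eWAT mouse 2, against 0.2707 to 0.3333 in the others.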

How the results depend on the processing

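With each sample left out in turn, 10 of 10 genes were called between iWAT and eWAT each time, 9 to 10 between iWAT and BAT and 7 to 9 between eWAT and BAT, and the ratios called were 4 to 7, 7 and 7. In iWAT against BAT, 4 genes were called at a log2 fold change of at least 1 in size. With the mouse as a replicate block, 10, 5 and 8 genes were called, and 0, 0 and 0 ratios, where the pairs cannot give a p below 0.03125 (white depots) and 0.125 (against BAT), so that no adjusted p was under 0.15. Among single genes named, the block changed no other calls than those of Abhd5, Lipe, Mgll and Plin2 in iWAT against BAT and of Rxra in eWAT against BAT. Directions turned mainly with the scaling. Without TMM scaling, iWAT against BAT was 0.43 for Lipe, 0.45 for Plin2, 0.12 for Akt2, 0.32 for Aqp7 and 0.31 for Pparg, and eWAT against BAT was 0.74 for Abhd5. By limma on RPKM they were 0.17 (Lipe), 0.22 (Plin2), 0.0992 (Aqp7), 0.0646 (Pparg) and 0.43 (Abhd5) with a pseudocount of 0.1, and 0.17, 0.22, 0.0964, 0.0639 and 0.41 with a pseudocount of 1, whereas Akt2 kept its direction (-0.12 with each). Without eWAT mice 1 and 3, Abhd5 was 0.0075 in eWAT against BAT and Mgll to Lipe was 0.0138 in iWAT against eWAT (-0.16 and -0.09 with all mice, none called). DESeq2 called 10, 10 and 8 genes, limma 10, 7 and 10, one fit of all 18 samples 10, 7 and 8. The depth left the lowest member, Pnpla3 in eWAT, with 459 reads or more.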
